A study of Homo sapiens with 6 samples.

Results

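Collagens, laminins and integrins were followed as a group of 58 genes among 15953 tested in HEK-293T cells given nitidine chloride. The group took every row of the deposited gene table whose symbol starts like a collagen chain (COL, a number, A, a number), a laminin chain (LAMA, LAMB or LAMC and a number) or an integrin subunit (ITGA or ITGB and a number, V, E or X). Rows with a hyphen and pseudogenes were left out, which gave 80 genes, and an average of 10 counts or more across the 6 libraries was required. The 58 that met it were 28 collagens, 10 laminins, 19 integrins and ITGB3BP, a centromere protein that matches by the start of its symbol alone and is counted in no family. Of the 22 genes under the minimum, 16 were collagens, 2 laminins and 4 integrins. The members nearest the minimum were COL6A3 with a mean of 10.3 counts and COL24A1 with 11.5, and the nearest genes outside were COL15A1 with 8.17 and COL6A6 with 7.33. COL5A2, COL23A1 and COL24A1 averaged under 10 counts with nitidine chloride and met the minimum through their DMSO libraries. COL6A3 averaged under 10 counts in DMSO and met it through the treated libraries. COL1A2, the partner chain of COL1A1 in type I collagen, had a mean of 2.50 counts, and COL21A1 and COL11A1 had 0 counts in every library.

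HEK-293T is a transformed line of human embryonic kidney cells, labelled WT for genotype in all samples. The cells were kept for 12 h in medium with DMSO, a solvent, or with 10 µM nitidine chloride, a plant benzophenanthridine alkaloid. Each group had 3 libraries of mRNA, and every comparison below is nitidine chloride against DMSO. The labels number the replicates without saying that they were separate cultures, so the p-values measure the spread between these libraries, which may be technical.

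Collagens are secreted or membrane-bound proteins whose chains wind into helices and assemble into fibrils, networks or filaments. Type IV collagen and the laminins, which are trimers of an alpha, a beta and a gamma chain, build the basement membrane under epithelia, including that of kidney tubules and glomeruli. Integrins are cell-surface dimers of an alpha and a beta subunit that bind matrix proteins such as collagen, laminin and fibronectin and link them to the actin cytoskeleton.

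Library totals ran from 12688093 to 16357992 counts. Mitochondrially encoded genes took 3.80% to 3.94% of counts in DMSO and 3.39% to 3.46% with nitidine chloride. The HEK-293T-like markers, among them NEFL, NEFM, PAX2, WT1 and EYA1, were above the count minimum for 8 of 8 genes and summed to 473 to 492 CPM, counts scaled to library size, in DMSO and 495 to 525 CPM with nitidine chloride. The sums join opposite changes: by the test given below, 4 of these 8 genes rose (NEFL, SIX2, WT1 and GATA3) and 2 fell (EYA1 and NEFM). NEFM went from a mean of 172 CPM in DMSO to 119 CPM with nitidine chloride, and NEFL from 152 to 196 CPM. Fibroblast markers, of which 2 of 7 were above the minimum and FAP was at 0, summed to 5.59 to 6.92 CPM and 8.70 to 9.09 CPM in the same order. Endothelial markers (2 of 7, CLDN5 at 0) summed to 3.41 to 4.44 and 8.88 to 12.3 CPM, and leukocyte markers (2 of 7, CD3E at 0) to 3.27 to 5.08 and 5.18 to 6.33 CPM. No hepatocyte marker of the 6 listed was above the minimum. The part of the higher sums of fibroblast, endothelial and leukocyte markers in the results below was not tested.

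At the level of single genes, 29 of the 58 members fell and 12 rose at an adjusted p under 0.05 in edgeR's quasi-likelihood test, and 17 did not pass. Beside them, 27.0% of all 15953 tested genes fell and 24.7% rose, so that 51.7% changed in either direction. The members' median log2 fold change was -0.45, against 0.01 over all tested genes. The CPM ranges of the groups did not overlap for 43 members, against 60.7% of all tested genes. A fall of at least 2-fold was found for 14 members (11.7% of all tested genes) and a rise of at least 2-fold for 3, with COL11A2 and ITGB4 among them (3.87% of all tested genes). In RNA of whole cultures, fewer cells that express a gene and less RNA per cell cannot be told apart. Directions are relative to the TMM scale: with scaling by library size alone the median of all genes moved from 0.01 to 0.12, 15 members rose and 26 fell, and 5140 of all tested genes rose and 3730 fell, against 3936 and 4314 with TMM.

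The summed CPM of the 28 collagens was 865, 907 and 901 in the DMSO libraries and 649.5, 719 and 693 with nitidine chloride, which is 77.1% of the DMSO mean. The 10 laminins summed to 623, 672 and 652 CPM in DMSO and 384, 434 and 413 CPM with nitidine chloride, or 63.3%. For the 19 integrins the sums were 440.1, 442 and 431 CPM in DMSO and 382, 378 and 391.7 CPM with nitidine chloride, or 87.8%. In all 3 families the sums of the treated libraries lay below those of the DMSO libraries. The 3 chains with the most counts held 48.8% of the collagen sum in DMSO (COL6A1, COL4A2 and COL18A1), 76.2% of the laminin sum (LAMC1, LAMA5 and LAMB1) and 62.5% of the integrin sum (ITGB1, ITGAV and ITGA5).

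**Figure D1:**
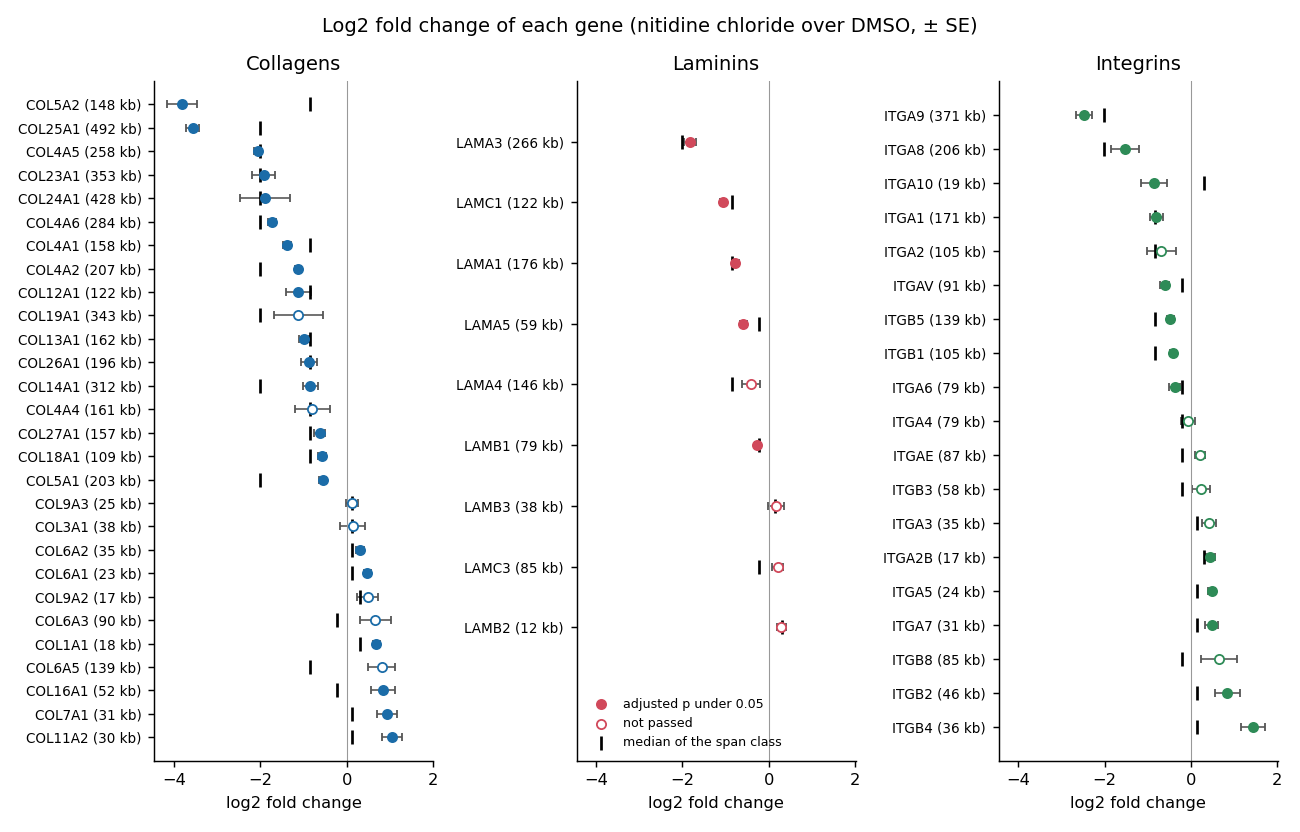
Log2 fold change (nitidine chloride over DMSO) of 28 collagens, 9 laminins and 19 integrins with its standard error, ordered within the family, with the genomic span in kb beside each name. Filled circles are genes with an adjusted p under 0.05, open circles are the rest, and black ticks mark the median of other tested genes in the same span class; the lowest values are those of COL5A2 (-3.81), LAMA3 (-1.83) and ITGA9 (-2.47).

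The type IV collagen chains COL4A1, COL4A2, COL4A5 and COL4A6 fell, and COL4A4 did not pass. COL4A1 and COL4A2, which combine into the most widespread type IV network, lie head to head on chromosome 13 (COL4A1 at 110148963 to 110307149 on the minus strand, COL4A2 at 110305812 to 110513027 on the plus strand). COL4A5 (X, 108439844 to 108697545, plus) and COL4A6 (X, 108155607 to 108439497, minus) are arranged likewise and encode chains of epithelial basement membranes, the former including that of the glomerulus. The stretches between the start sites are shown because each is shared by a pair whose members were both lower. They were read from RefSeq on GRCh38.p14, plus strand, 5′ to 3′, where the starts of COL4A1 and COL4A2 are 126 bases apart (chr13:110307158-110307283) and the middle 121 of 379 bases are given for COL4A6 and COL4A5 (chrX:108439588-108439708). Capitals mark matches to GGGCGG (GC box) and CCAAT on either strand.
COL4A1-COL4A2 between starts: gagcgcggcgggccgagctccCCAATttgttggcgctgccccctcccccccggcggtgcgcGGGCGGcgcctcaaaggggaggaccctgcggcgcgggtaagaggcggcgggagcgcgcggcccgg
COL4A6-COL4A5 between starts: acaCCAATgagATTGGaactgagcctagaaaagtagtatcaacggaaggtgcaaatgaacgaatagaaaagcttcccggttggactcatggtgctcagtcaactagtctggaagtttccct
The shared stretch on chromosome 13 is 80.2% G and C and holds 1 GC box and 1 CCAAT. The 121 bases read on the X chromosome are 44.6% G and C and hold 2 CCAAT matches, 1 on each strand, and no GC box.

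COL4A1 was at 77.3, 79.4 and 86.3 CPM in the DMSO libraries and at 31.6, 33.3 and 28.6 CPM with nitidine chloride, a log2 fold change of -1.38 ± 0.08 (SE, adjusted p = 9.28e-06). COL4A2 was at 157, 161 and 147 CPM and at 69.9, 76.4 and 66.8 CPM in the same order (-1.12 ± 0.07, adjusted p = 1.24e-05). No treated library reached a DMSO library for either chain. The table places the annotated ends of these genes 1338 bp over each other on opposite strands, and the strand setting of the counting is not given in the sources used here, so reads from the overlap may be shared. COL4A5 fell more steeply, from 59.0, 62.7 and 58.8 CPM to 14.96, 14.91 and 13.30 CPM (-2.06 ± 0.08, adjusted p = 1.5e-06). Its partner COL4A6 was at 29.17, 30.65 and 30.02 CPM in DMSO and at 8.53, 9.60 and 8.84 CPM after treatment (-1.73 ± 0.09, adjusted p = 4.44e-06). The table leaves 346 bp between the COL4A6 and COL4A5 annotations. The other chains of the glomerular network were scarce: COL4A4 was at 1.64, 0.924 and 2.16 CPM in DMSO and 1.26, 0.569 and 0.935 CPM with nitidine chloride (-0.79, adjusted p = 0.141), with overlapping groups, and COL4A3 had a mean of 3.00 counts. COL18A1, a basement membrane collagen whose C-terminal fragment is endostatin, fell from 114, 113 and 125 CPM to 73.2, 89.7 and 75.6 CPM (-0.56, adjusted p = 0.00142), and it shares ground with SLC19A1.

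Among the fibril-forming collagens the partners COL5A1 and COL5A2 separated. Type V collagen, built from their chains, sets the diameter of type I fibrils. COL5A2 (chromosome 2, 189031896 to 189179879) had 32, 45 and 49 counts in the DMSO libraries and 2, 2 and 5 with nitidine chloride. On the CPM scale that is 2.63, 3.20 and 3.11 against 0.140, 0.126 and 0.360 (-3.81 ± 0.35, adjusted p = 7.14e-05), the lowest fold change of the 58 members. Summed over libraries, 126 counts stood against 9, a ratio of 14.7 after scaling for depth with a 95% interval of 7.49 to 32.9 that covers counting error only. COL5A1 (chromosome 9, 134641774 to 134844843) was at 49.9, 53.1 and 52.2 CPM in DMSO and 33.0, 38.0 and 34.5 CPM after treatment (-0.56 ± 0.08, adjusted p = 8.42e-04). The gene next to COL5A2, COL3A1, starts and ends within 38.4 kb, lies 19149 bp away on the opposite strand, and encodes type III collagen. It was at 2.05, 2.06 and 1.97 CPM in DMSO and 1.75, 1.71 and 3.31 CPM with nitidine chloride (0.14, adjusted p = 0.706), and its sign turned to -0.23 without nitidine chloride replicate 3.

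COL1A1, the main chain of type I collagen, rose from 29.996, 34.13 and 33.76 CPM to 50.25, 56.98 and 50.84 CPM (0.69 ± 0.09, adjusted p = 4.48e-04), with every treated library above the DMSO libraries. COL11A2, a minor fibrillar chain known from cartilage, rose from 1.48, 2.42 and 2.73 CPM to 4.89, 4.23 and 4.82 CPM (1.05 ± 0.23, adjusted p = 0.00579). The more recently described fibrillar chains fell: COL27A1 by 0.63 on the log2 scale (adjusted p = 0.00333) and COL24A1, on 54 against 15 summed counts, by 1.90 (adjusted p = 0.0266).

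Type VI collagen forms beaded filaments near the cell surface. COL6A1 (chromosome 21, 45981737 to 46005050) had the highest level per length of all collagens, 21.1 ± 1.21 FPKM in DMSO and 31.7 ± 1.69 FPKM with nitidine chloride (SD, n = 3 each). Its CPM was 152, 165 and 169 in DMSO and 211, 237 and 233 after treatment (0.48 ± 0.07, adjusted p = 9.1e-04). COL6A2, 93.0 kb further along the same strand, went from 68.7, 64.7 and 59.0 CPM to 72.8, 82.6 and 83.2 CPM (0.31 ± 0.09, adjusted p = 0.017), a rise that did not pass in 5 of 14 alternative settings. COL6A3, the largest chain of the type, was near the count minimum at 0.381 to 0.822 CPM in DMSO and 0.791 to 1.01 CPM with nitidine chloride (0.67, adjusted p = 0.158). COL6A5 was at 1.068, 0.853 and 1.079 CPM in DMSO and 1.957, 2.211 and 1.079 CPM after treatment (0.81 ± 0.32, adjusted p = 0.067). The third treated library of COL6A5 was level with DMSO, and without it the adjusted p was 0.0127.

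The transmembrane collagens COL25A1, COL23A1 and COL13A1 fell. COL25A1, known from neurons and their contacts with muscle, was at 23.9, 29.3 and 26.3 CPM in DMSO and 2.03, 2.02 and 2.66 CPM with nitidine chloride (-3.57 ± 0.15, adjusted p = 1.68e-06). It is the longest member, 492 kb on chromosome 4 with 39 exons and a longest intron of 250.4 kb. COL23A1 fell by 1.92 on the log2 scale (105 against 29 summed counts, adjusted p = 6.87e-04), and COL13A1, which takes part in the neuromuscular junction, fell by 0.98 (adjusted p = 3.56e-04). Of the fibril-associated collagens, COL12A1 fell by 1.12 (adjusted p = 0.0155) and COL14A1 by 0.84 (adjusted p = 0.00482), whereas COL16A1 rose by 0.85 (adjusted p = 0.0311). The COL12A1 and COL16A1 calls rest on 0.884 to 3.43 and 0.698 to 2.01 CPM and were lost in 3 and 9 of 13 settings. COL9A2, COL9A3 (overlapping TCFL5) and COL19A1 of the same class did not pass (0.49, 0.13 and -1.12). COL7A1, the anchoring fibril collagen beneath the epidermis, rose from 6.16, 7.82 and 9.65 CPM to 13.2, 12.3 and 19.8 CPM (0.93 ± 0.23, adjusted p = 0.0109). COL26A1 fell by 0.87 (adjusted p = 0.00604). In all, 15 collagens fell (53.6%) and 6 rose (21.4%), beside 27.0% and 24.7% of all tested genes. Another 7 did not pass, and the median log2 fold change of the collagens was -0.71.

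**Figure D2:**
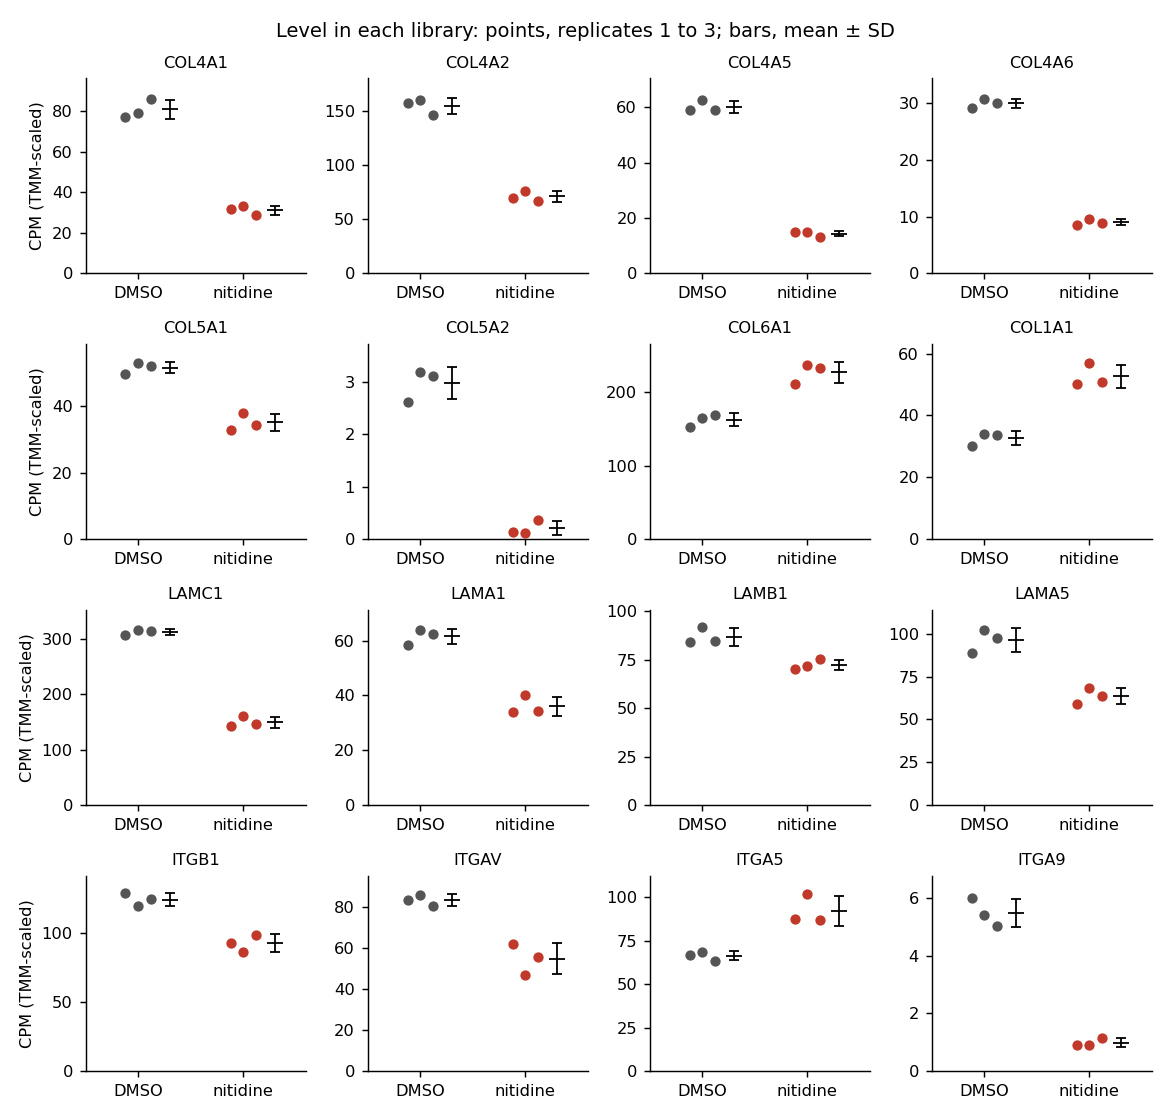
Level of 16 collagen, laminin and integrin genes in each library, in TMM-scaled CPM on axes that start at 0; points are replicates 1 to 3 of each group and bars are mean ± SD. The groups do not overlap in any of the 16 panels: COL6A1, COL1A1 and ITGA5 are higher with nitidine chloride and the others are lower. These genes were selected for display. Over the whole group the ranges did not overlap for 43 of 58 members, against 60.7% of all tested genes.

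The 10 laminin chains held 5 that fell (50%, against 27.0% of all tested genes) and 1 that rose (10%, against 24.7%). In the family 4 did not pass, and the median log2 fold change was -0.34. With scaling by library size alone 4 fell and 2 rose, so that 33.3% rather than 16.7% of the laminin calls were higher. LAMC1, the gamma chain of most laminins, had the highest level per length of the family (31.2 ± 0.580 FPKM in DMSO, 16.1 ± 0.757 FPKM with nitidine chloride). It was at 306, 315 and 314 CPM in DMSO and 142, 160.4 and 146 CPM after treatment (-1.06 ± 0.07, adjusted p = 9.17e-06). All treated libraries were lower than all DMSO libraries. LAMC1 lies on the plus strand of chromosome 1 at 183023460 to 183145592 and spans 122 kb in 28 exons, with a longest intron of 79.2 kb.

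All alpha chains above the count minimum had negative fold changes. LAMA3, an epithelial chain that assembles with LAMB3, fell from 21.4, 24.6 and 22.5 CPM to 7.34, 6.70 and 5.18 CPM (-1.83 ± 0.14, adjusted p = 3.27e-05). LAMA1, the chain of the earliest embryonic basement membranes, fell from 58.5, 63.8 and 62.3 CPM to 33.83, 40.05 and 34.23 CPM (-0.77 ± 0.09, adjusted p = 2.59e-04). LAMA5, its widely expressed counterpart, was at 88.6, 102 and 97.5 CPM in DMSO and 59.0, 68.5 and 63.9 CPM with nitidine chloride (-0.59 ± 0.08, adjusted p = 7e-04). LAMA5 overlaps ADRM1 in the table. LAMA4, a chain of vascular and muscle basement membranes, was at 7.40, 10.5 and 7.49 CPM against 5.03, 6.38 and 7.62 CPM (-0.42, adjusted p = 0.126), with overlapping groups.

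Beta chains had smaller fold changes. LAMB1, which overlaps DLD, was at 83.8, 92.0 and 84.3 CPM in DMSO and 70.1, 71.8 and 75.1 CPM after treatment (-0.26 ± 0.07, adjusted p = 0.012), a call lost in 4 of 14 settings. LAMB2, the beta chain of mature glomerular and synaptic basement membranes, was at 42.4, 50.2 and 47.9 CPM against 49.5, 61.3 and 60.9 CPM (0.29 ± 0.11, adjusted p = 0.0577). LAMB3 and LAMC3 did not pass either (0.17 and 0.20, adjusted p = 0.495 and 0.207).

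Integrin subunits were found in both directions. Of all tested genes 27.0% fell and 24.7% rose. From a total of 19 integrins, 8 fell (42.1%) and 5 rose (26.3%), while 6 did not pass. The share that rose was near that of all tested genes, and the integrin median log2 fold change was -0.06. With library-size scaling 6 rose and 6 fell, which moved the share of higher calls from 38.5% to 50% and the median to 0.04. The integrin median ranged from -0.18 to 0.05 when 1 library was left out (without nitidine chloride replicates 3 and 2), and was -0.22 without ITGA2B and -0.38 without the members overlapped by another tested gene, where 2 of the remaining 13 rose and 6 fell. Among 13 alpha subunits 3 rose (23.1%) and 6 fell (46.2%, median -0.38). Among 6 beta subunits 2 rose and 2 fell (33.3% each, median 0.44).

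ITGB1, the common beta partner of the collagen, laminin and fibronectin receptors, had the highest level per length of the integrins (11.2 ± 0.374 FPKM in DMSO, 9.01 ± 0.759 FPKM with nitidine chloride). It was at 128, 119 and 124 CPM in DMSO and 92.7, 86.0 and 98.5 CPM after treatment (-0.42 ± 0.07, adjusted p = 0.0016). The alpha subunits that bind fibronectin and vitronectin through the RGD motif, ITGA5 and ITGAV, changed in opposite directions. ITGA5 (chromosome 12, 54395261 to 54419460, minus) rose from 66.6, 68.7 and 63.5 CPM to 87.4, 102 and 87.2 CPM (0.48 ± 0.08, adjusted p = 0.00187). ITGAV (chromosome 2, 186590065 to 186680901, plus) fell from 83.5, 85.9 and 80.5 CPM to 61.9, 46.9 and 55.4 CPM (-0.61 ± 0.10, adjusted p = 0.00178). Their upstream stretches, the 250 bases before the RefSeq start on GRCh38.p14, are shown for this contrast, 5′ to 3′ on the strand of each gene, with a GC box in capitals (chr12:54419267-54419516, minus, and chr2:186589806-186590055, plus).
ITGA5 upstream: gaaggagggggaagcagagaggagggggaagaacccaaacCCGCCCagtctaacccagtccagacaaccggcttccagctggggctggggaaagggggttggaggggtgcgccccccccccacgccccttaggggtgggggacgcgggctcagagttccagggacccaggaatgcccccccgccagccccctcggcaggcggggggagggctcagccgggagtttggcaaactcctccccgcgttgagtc
ITGAV upstream: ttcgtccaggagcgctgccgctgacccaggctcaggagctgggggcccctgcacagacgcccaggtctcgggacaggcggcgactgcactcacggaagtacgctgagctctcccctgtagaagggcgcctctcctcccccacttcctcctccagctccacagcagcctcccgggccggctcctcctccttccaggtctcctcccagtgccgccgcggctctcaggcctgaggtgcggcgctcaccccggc
The RefSeq start of ITGA5 lies inside the gene as the deposited table places it, up to 54419460. Part of the ITGA5 stretch is therefore within the annotated gene, whereas the ITGAV stretch ends before the annotated gene at 186590065. Both stretches are rich in G and C, 70.0% for ITGA5 and 70.8% for ITGAV. The ITGA5 stretch holds 1 GC box on the opposite strand, and the ITGAV stretch holds no GC box, CCAAT box or TATA box. ITGB5, a vitronectin receptor subunit that pairs with ITGAV, fell from 33.1, 34.1 and 32.0 CPM to 24.5, 23.8 and 23.0 CPM (-0.48 ± 0.08, adjusted p = 0.00147). ITGB3 and ITGB8, other partners of ITGAV, were under 2 CPM in every library and did not pass (0.24 and 0.65).

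ITGA9, which binds tenascin C and other non-collagen ligands, had the lowest fold change of the integrins. It was at 5.999, 5.405 and 5.014 CPM in DMSO and 0.909, 0.884 and 1.15 CPM with nitidine chloride (-2.47 ± 0.19, adjusted p = 2.64e-05), and it overlaps ITGA9-AS1. ITGA8, a nephronectin receptor needed for kidney development, fell from 3.86, 3.98 and 5.65 CPM to 1.61, 0.884 and 2.23 CPM (-1.53 ± 0.32, adjusted p = 0.00519). Among the collagen receptors, ITGA1 (-0.80 ± 0.15, adjusted p = 0.00276, overlapping PELO) and ITGA10 (-0.86 ± 0.29, adjusted p = 0.0411) fell. ITGA10 was at 1.48, 1.49 and 1.71 CPM in DMSO and 0.559, 1.14 and 0.863 CPM after treatment, and its call was lost in 11 of 13 settings. ITGA2, 30.1 kb from ITGA1, was at 10.8, 25.1 and 23.2 CPM in DMSO and 8.04, 13.5 and 15.3 CPM with nitidine chloride (-0.69 ± 0.34, adjusted p = 0.131). The first DMSO library of ITGA2 lay within the treated range, and without it the log2 fold change was -0.98 (adjusted p = 0.0167).

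Laminin receptors did not share a direction. ITGA6 fell from 30.3, 27.0 and 24.1 CPM to 22.3, 18.6 and 21.7 CPM (-0.38 ± 0.12, adjusted p = 0.0299), a call lost in 6 of 14 settings. ITGB4, its partner in hemidesmosomes, rose from 1.56, 1.07 and 2.35 CPM to 3.84, 4.86 and 4.96 CPM (1.44 ± 0.28, adjusted p = 0.00341), the highest fold change of the members. ITGB4 overlaps GALK1. ITGA7, the laminin receptor of muscle, which overlaps BLOC1S1, METTL7B and AC009779.3, rose by 0.48 (adjusted p = 0.0368), a call lost in 6 of 14 settings. ITGA3 was at 11.8, 11.0 and 8.50 CPM in DMSO and 14.5, 15.2 and 11.6 CPM after treatment (0.41, adjusted p = 0.0643). Of the subunits known from blood cells, the platelet subunit ITGA2B rose from 7.81, 7.68 and 8.06 CPM to 10.3, 10.7 and 11.3 CPM (0.45 ± 0.10, adjusted p = 0.00811). ITGB2, the leukocyte beta subunit, rose from 0.740, 0.924 and 0.635 CPM to 1.468, 1.579 and 1.079 CPM (0.85 ± 0.28, adjusted p = 0.0381), a call lost in 9 of 13 settings, and it overlaps AL844908.2. ITGA4 and ITGAE, the latter overlapping HASPIN, did not pass (-0.06 and 0.20). ITGB3BP, which overlaps DLEU2L, EFCAB7 and PGM1, fell from 86.1, 88.2 and 88.0 CPM to 44.1, 37.1 and 47.5 CPM (-1.03 ± 0.10, adjusted p = 7.95e-05).

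Ratios of partner or related chains, taken per length from FPKM, show how the proportions moved; the pairs were chosen after their values had been seen, so they are given with no test. The ratio of COL5A1 to COL5A2 was 10.9 ± 0.830 in DMSO and 132 ± 65.5 with nitidine chloride (SD, n = 3 each), the latter on 2 to 5 counts of COL5A2 per library. ITGAV to ITGA5 went from 1.18 ± 0.00825 to 0.565 ± 0.120, so that the more abundant of the 2 subunits changed. LAMB1 to LAMB2 went from 2.07 ± 0.122 to 1.42 ± 0.143, and LAMA1 to LAMA5 from 0.591 ± 0.0176 to 0.521 ± 0.0239. The hemidesmosome partners ITGA6 and ITGB4 stood at 17.1 ± 7.07 in DMSO and 4.36 ± 0.955 after treatment. The type IV pairs stood at 0.573 ± 0.0602 and 0.479 ± 0.0132 for COL4A1 to COL4A2 and at 2.12 ± 0.0472 and 1.69 ± 0.140 for COL4A5 to COL4A6. The ratio of COL6A1 to COL6A2 overlapped between the groups (2.79 ± 0.358 and 3.12 ± 0.0564).

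**Figure D3:**
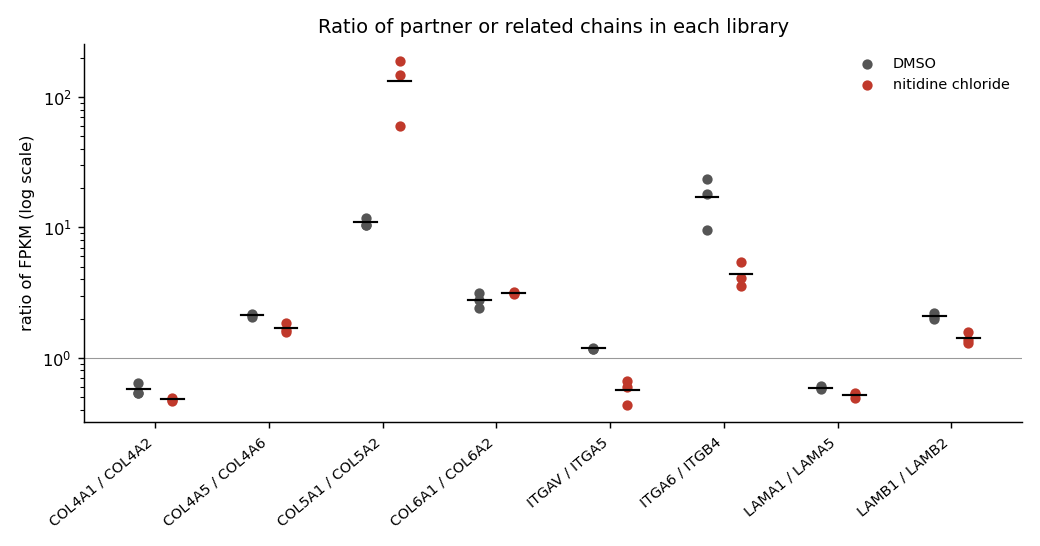
Ratio of FPKM between partner or related chains in each library, on a log axis, for DMSO (grey) and nitidine chloride (red), with the group mean as a bar. The groups separate for each ratio except COL6A1 to COL6A2, and ITGAV to ITGA5 passes from above 1 to below 1.

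The direction of the members followed their genomic span, that is, the length it covers in the table with introns included. Across the 58 genes Spearman's rho between span and log2 fold change was -0.80, and -0.47 across all tested genes; genes share the 6 libraries and are not independent replicates. The median member spanned 98.1 kb and the median tested gene 27.3 kb. Of 29 members of at least 100 kb, 24 were called lower, 0 higher and 5 neither, at a median of -1.03. Below 50 kb, 10 of 17 members rose, 1 fell (ITGA10) and 6 did neither, at a median of 0.48. The 12 members from 50 to 100 kb held 2 that rose and 4 that fell. The collagens divided cleanly by span: the 15 that fell spanned 109 to 492 kb and the 6 that rose 18.3 to 52.1 kb. All 14 members that fell at least 2-fold spanned 100 kb or more. COL5A2, COL23A1 and COL24A1 are among them and met the count minimum only through DMSO, so their part in these counts is description only. Among the 39 members with a mean of at least 50 counts, rho was -0.89 and 8 fell at least 2-fold.

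The members were set beside the other tested genes of each span class that held members. Among those of 100 to 200 kb 75.01% fell and 2.67% rose, with a median of -0.84, beside 13 of 17 members that fell and a member median of -0.79. At 200 kb or more 89.3% of other genes fell, with a median of -2.004, beside 11 of 12 members and a member median of -1.78. From 20 to 50 kb 30.7% of other genes rose and 12.2% fell (median 0.13), beside 8 of 12 members that rose and none that fell (median 0.48). From 10 to 20 kb 44.2% of other genes rose and 6.27% fell (median 0.30), beside 2 and 1 of 5 members (median 0.45). From 50 to 100 kb 10.4% of other genes rose and 39.8% fell (median -0.22), beside 2 and 4 of 12 members (median 0.20). A member's log2 fold change less the median of its class had a median of 0.18 over the 58 members, 0.20 for collagens, 0.05 for laminins and 0.34 for integrins. It was above the class median for 41 members and below it for 17, with 22 above the upper quartile and 6 below the lower quartile.

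The members farthest below the median of their span class were COL5A2, COL25A1 and ITGA10, with log2 fold changes of -2.97, -1.56 and -1.16 relative to the class median. Of 1065 tested genes with a span close to that of COL5A2, 0.0939% had a lower fold change. COL5A2 met the count minimum only through DMSO (32, 45 and 49 counts, against 2, 2 and 5), so this rank is description only. Of 1697 genes with a span close to that of ITGA10, 2.24% were lower. For COL25A1, at 492 kb in the open class of 200 kb or more, 27.1% of 199 genes of close span were lower and their median was -3.10. The members farthest above their class median were COL6A5 (1.65), COL5A1 (1.45) and ITGB4 (1.31). COL5A1, at 203 kb, lies near the lower edge of the open class of 200 kb or more. The 725 genes of span close to its own had a median of -1.40, and COL5A1 (-0.56) was above 83.3% of them. COL14A1, in the same class, was above 85.2% of 391 genes of close span. COL5A1 and COL5A2 were thus on opposite sides of the genes of their span. In COL5A1 and COL5A2, exons add up to 8.47 and 7.08 kb, and the longest introns are 48.6 and 69.1 kb.

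**Figure D4:**
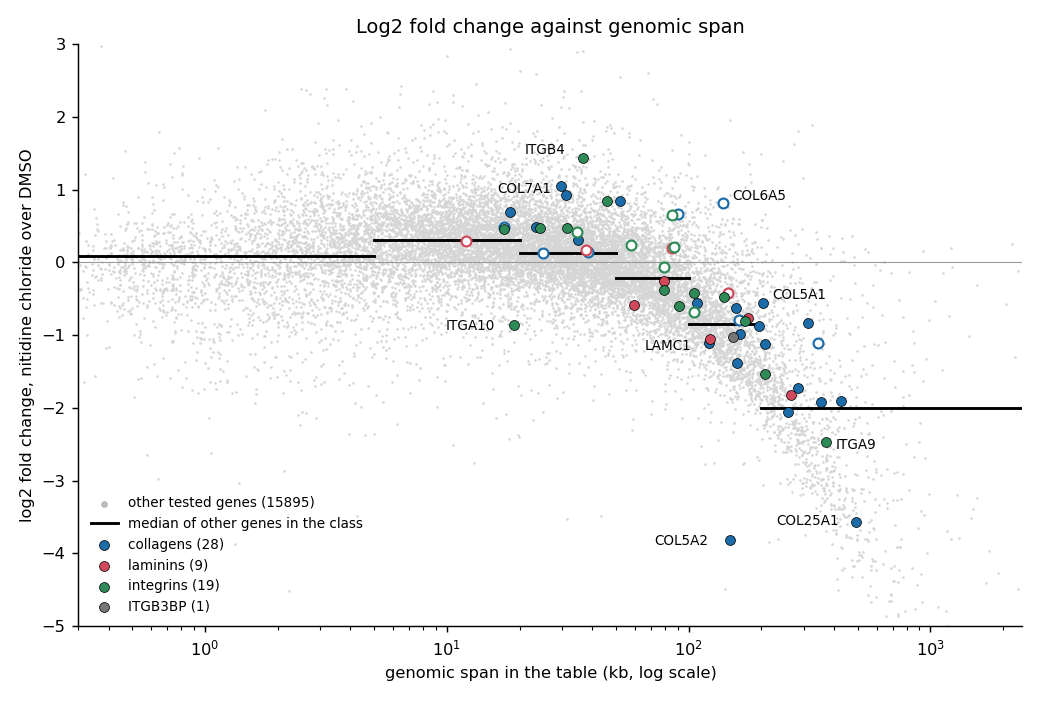
Log2 fold change (nitidine chloride over DMSO) of each tested gene against its genomic span in kb on a log axis; grey dots are the other 15895 tested genes, of which 77 lie outside the plotted range, and black lines are the medians of those genes in each span class. Coloured circles are 28 collagens, 9 laminins, 19 integrins and ITGB3BP, filled where the adjusted p was under 0.05: members of at least 100 kb lie at or below 0 except COL6A5 (0.81), and COL5A2 lies far below the line of its class.

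RefSeq promoter windows, from 250 bases before to 50 after a start on GRCh38.p14, were found for 42 of the 58 members, in 56 windows. The GC box GGGCGG occurred on either strand in 64.3% of member windows and in 45.0% of all 35116 windows. CCAAT occurred in 21.4% and 34.6%, and TATAAA in 10.7% and 11.5%. These matches describe the letters and were set against no binding data.

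Genes that act on or beside the members were taken from 6 lists of the pathway. Beside the counts of all 6 lists, 24.7% of all tested genes rose and 27.0% fell. Of 22 genes for collagen modification and export 7 rose (31.8%), 6 fell (27.3%) and 9 did not pass (median 0.02), shares near those of all tested genes. The lysyl hydroxylase PLOD2 fell from 127 ± 2.34 to 28.97 ± 2.58 CPM (-2.14, adjusted p = 1.04e-06) and the prolyl 3-hydroxylase P3H2 fell by 0.79. PLOD2 spans 94.2 kb and P3H2 166 kb. Their relatives PLOD3 and P3H3 rose by 0.53 and 0.49, and both overlap another gene (ZNHIT1 and GPR162). Of 13 tested genes for procollagen cleavage and cross-linking 5 rose and 5 fell (38.5% each, median 0.25). The procollagen N-proteinases ADAMTS3 and ADAMTS2 fell by 3.20 and 1.84, and the lysyl oxidase relatives LOXL4 and LOXL1 rose by 1.07 and 0.997, LOXL1 overlapping its antisense gene.

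Among 22 other basement membrane and matrix proteins 13 fell (59.1%) and 3 rose (13.6%), with a median of -0.62. FRAS1, of the embryonic epithelial basement membrane, fell from 62.2 ± 6.36 to 8.25 ± 1.83 CPM (-2.91, adjusted p = 6.13e-06). The microfibril protein FBN2 fell from 168 ± 7.72 to 32.8 ± 1.96 CPM (-2.36, adjusted p = 6.31e-07). THBS1 and MATN3 rose by 1.13 and 0.64. Of 13 other matrix receptors 3 rose and 3 fell (23.1% each, median 0.14), again near the shares of all tested genes. The collagen receptor DDR2 fell by 2.02 and HMMR by 1.04, while the syndecan SDC4 and the laminin receptor BCAM rose by 0.81 and 0.60.

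Of 39 genes of the integrin adhesion complex 19 fell (48.7%), 7 rose (17.9%) and 13 did not pass (median -0.26). LPP, a zyxin relative at adhesion sites, fell from 40.8 ± 2.27 to 1.94 ± 0.631 CPM (-4.39, adjusted p = 1.89e-06), and the Rac activator DOCK1 fell from 105 ± 2.54 to 7.52 ± 0.825 CPM. LPP spans 737 kb and DOCK1 547 kb, in the same class of 200 kb or more. The part of genomic span in the counts of the lists was not tested. NEDD9, a Cas-family scaffold, rose from 2.76 ± 0.477 to 7.80 ± 0.351 CPM (1.49, adjusted p = 1.68e-04) with a span of 199 kb. GIT1, which overlaps ANKRD13B, rose by 0.84. Among 16 matrix proteases and inhibitors 7 rose and 7 fell (43.75% each, median -0.12). MMP16 (296 kb) fell by 3.03 and ADAM10 (161 kb) by 1.46, while MMP11 (16.1 kb), which overlaps CHCHD10, and ADAM15 (12.2 kb) rose by 1.22 and 0.68.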

How the data were processed

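RNA of HEK-293T cells was sequenced as 6 mRNA libraries, 3 per group, with groups and replicate numbers from the sample labels. The deposited table holds raw counts per gene and, per the file headers, FPKM, which the authors scaled to gene length and library total. The submitters' processing notes list HISAT2 2.0.4 and StringTie 1.3.0. Counter, strand setting and genome build: not given in the sources used here. Of the 58 members, 50 have the position of GENCODE release 29 (GRCh38).

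The table has 50868 rows, 22254 of them at 0 throughout. Genes averaging 10 counts or more were scaled by TMM and tested with the quasi-likelihood F test of edgeR 4.0.16 under R 4.3.3, with Benjamini-Hochberg adjustment over all 15953 genes and a threshold of 0.05. CPM is after TMM scaling, SE is the log2 fold change over the root of the F statistic, and ± in levels is SD. The fit was tested on simulated data. FPKM served for levels between genes. Exons and introns came from the GENCODE coding transcript with the most exons, with ties broken by exon length. Spans within a factor of 0.8 counted as close.

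The members and lists were chosen with earlier results of these data known. Values in every library were given by rule for the 3 lowest, 3 highest and 3 most abundant members per family, pairs that share a start region and receptor partners. Lists name up to 2 genes per direction. Others were chosen after their values were seen. A few items that the rules would name are not reported here, though they stay in the counts. ITGA2B was missed by the family rule and added to the integrins afterwards; without it 4 integrins rose and 8 fell. The fit was repeated with a replicate block, without each library in turn, with no count filter, a mean count of 50, library-size scaling, a 1.5-fold test, DESeq2 1.42.0, limma-voom (limma 3.58.1), a threshold of 0.01 and omission of overlapped members. Plots used matplotlib 3.10.9.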

Additional observations from a re-analysis of the deposited data

How the results depend on the processing

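Of 41 members that passed, 15 kept call and direction in all alternatives fitted, 8 lost the call under one other than the 0.01 threshold or the 1.5-fold test (COL12A1, COL6A2, COL16A1, ITGA10, ITGA6, ITGA7, ITGB2 and LAMB1), and 0 reversed. Among members that did not pass, COL3A1 ran from -0.23 (without nitidine chloride replicate 3) to 0.32 when 1 library was left out. ITGA4 ran from -0.18 to 0.050 (without nitidine chloride replicate 2) and was at 0.043 with library-size scaling.

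Tested against a 1.5-fold change, 750 genes were higher and 2083 lower, among them 2 and 13 members, 0 and 8 collagens and 1 and 2 integrins, with 2 laminins lower. At a threshold of 0.01, 2616 genes, 7 members, 3 collagens and 3 integrins were higher. With a mean count of at least 50, 2 laminins and 3 integrins were higher and 5 integrins lower; library-size scaling gave 2 laminins higher. Without the 13 members overlapped by another tested gene, 3 laminins were lower and 2 integrins higher. Against genes of close span, the median difference was 0.26 for members and 0.27 for integrins. Leaving out 1 library left 8 to 11 members higher and 25 to 29 lower, with 1 to 2 laminins and 3 to 5 integrins higher (3 without DMSO replicate 1 or 3 or nitidine chloride replicate 2).

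Over all tested genes, deviations of same-numbered libraries from their group means correlated at 0.00138, -0.0550 and 0.0403. These values show no shared pattern across the genes as a whole but cannot exclude a pairing that touches single genes. ITGA2, for one, was lowest in replicate 1 of both groups (10.8 CPM in DMSO and 8.04 CPM with nitidine chloride). With a replicate block 11 members rose and 29 fell (3492 and 4063 of all genes), with 2 laminins higher. COL6A2, COL16A1, ITGA10 and ITGB2 then did not pass (adjusted p = 0.0501, 0.0682, 0.0645 and 0.0536), and ITGA2, ITGA3 and LAMB2 did (0.0109, 0.0318 and 0.0308).

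Depth limits the scarce members: 39 of 58 had a mean of at least 50 counts, and those under about 1 CPM rest on few reads per library.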
